A study of Mus musculus with 6 samples.

Results

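A set of 10 genes that drive the circadian clock, or carry its output, was followed through the lists of promoter and other intervals acetylated at lysine 9 of histone H3 (H3K9ac) in mouse intestinal epithelium. They were the activators Clock, Npas2 and Arntl, the nuclear receptor genes Nr1d1, Nr1d2 and Rora, the PAR bZIP factors Dbp, Tef and Hlf, and the bZIP repressor Nfil3. An interval belonged to a gene where the authors' own annotation named that symbol, in any region class. By this rule 55 of the 42835 nuclear intervals in the 6 lists belonged to the 10 genes, of 21900 protein-coding genes in all. Of the 10 genes, 8 had at least 1 interval, while Rora and Hlf had none in any list.

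Chromatin immunoprecipitation with an H3K9ac antibody was run on epithelial cells from the lower intestine (distal, per the labels) of mice of the C57BL/6 strain. They were conventionally housed with a normal microbiota, monoassociated with Escherichia coli (colonized by that bacterium alone) or germ-free, and each of the 3 groups had 2 libraries. The comparisons ask what the microbiota, or a single bacterial species, does to this mark. The sources used here do not give age, sex, any pooling of animals or the hour at which tissue was taken, and the hour matters for genes whose transcription cycles over the day. Whether each library came from its own animals is not stated in the labels, and replicates may therefore differ for technical reasons alone.

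The clock is a feedback loop. CLOCK, or its paralogue NPAS2, pairs with BMAL1 (the product of Arntl) and binds E-box sequences, which switches on the Per and Cry repressors as well as Nr1d1, Nr1d2 and Dbp. The REV-ERB receptors encoded by Nr1d1 and Nr1d2 repress Arntl, Clock, Npas2 and Nfil3 through ROR elements, where REV-ERB alpha recruits NCoR and the deacetylase HDAC3, and the ROR alpha receptor activates through the same elements. DBP, TEF and HLF activate genes with D-boxes, and NFIL3 represses them. In the intestinal epithelium this circuit is known to time lipid uptake and to respond to the microbiota. H3K9ac marks active promoters, usually on the nucleosomes just after the start site.

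The promoters differed widely in base composition. The RefSeq promoter windows, from 250 bases before to 50 bases after the start site, are shown for the 3 genes whose start regions were called in 3 or more libraries, with capitals at every CG dinucleotide. The windows (GRCm38.p6, the assembly behind mm10) are Nr1d1 at chr11:98775328-98775627 on the minus strand, Clock at chr5:76304499-76304798 on the minus strand and Npas2 at chr1:39194022-39194321 on the plus strand.
Nr1d1: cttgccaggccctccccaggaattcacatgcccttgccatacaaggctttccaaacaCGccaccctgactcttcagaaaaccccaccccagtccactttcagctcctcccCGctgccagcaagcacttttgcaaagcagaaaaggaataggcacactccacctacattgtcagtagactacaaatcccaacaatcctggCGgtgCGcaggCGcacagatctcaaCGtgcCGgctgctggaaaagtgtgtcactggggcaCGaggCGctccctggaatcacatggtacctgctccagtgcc
Clock: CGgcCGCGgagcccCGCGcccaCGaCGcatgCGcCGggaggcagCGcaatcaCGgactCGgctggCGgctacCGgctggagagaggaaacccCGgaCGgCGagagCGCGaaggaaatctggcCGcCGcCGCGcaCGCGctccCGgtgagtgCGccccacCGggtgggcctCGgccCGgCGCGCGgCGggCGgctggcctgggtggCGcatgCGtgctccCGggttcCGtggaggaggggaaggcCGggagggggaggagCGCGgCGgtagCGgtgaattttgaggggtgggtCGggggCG
Npas2: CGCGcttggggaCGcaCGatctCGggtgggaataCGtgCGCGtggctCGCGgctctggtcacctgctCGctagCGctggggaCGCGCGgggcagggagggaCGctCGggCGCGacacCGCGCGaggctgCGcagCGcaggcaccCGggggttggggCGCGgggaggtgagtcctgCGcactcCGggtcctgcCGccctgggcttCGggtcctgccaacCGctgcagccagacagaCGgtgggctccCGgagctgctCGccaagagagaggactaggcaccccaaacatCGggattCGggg
The window of Nr1d1 held 9 CG dinucleotides, that of Clock 46 and that of Npas2 37. The observed to expected CG ratio was 0.404 at Nr1d1, 1.09 at Clock and 0.950 at Npas2, against a median of 0.567 over 21263 windows of protein-coding genes. Over the 10 genes, 1 window each, the median ratio was 0.885, with the lowest value at Nr1d1 and the highest at Nfil3 (1.10).

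The windows were also searched for the clock's own elements on both strands. The E-box was taken as CACGTG, the D-box as TTANGTAA, and the core of the ROR element as TAGGTCA or TGGGTCA. The matches are shown in capitals in the windows of Tef (chr15:81811164-81811463, plus strand), Nfil3 (chr13:52980990-52981289, minus strand) and the later of the paired RefSeq starts of Arntl (chr7:113207261-113207560, plus strand).
Tef: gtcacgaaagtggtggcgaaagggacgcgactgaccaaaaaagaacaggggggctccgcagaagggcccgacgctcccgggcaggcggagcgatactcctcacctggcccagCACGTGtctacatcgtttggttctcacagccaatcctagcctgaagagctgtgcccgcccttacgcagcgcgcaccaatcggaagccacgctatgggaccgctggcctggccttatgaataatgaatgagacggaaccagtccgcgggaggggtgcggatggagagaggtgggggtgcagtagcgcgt
Nfil3: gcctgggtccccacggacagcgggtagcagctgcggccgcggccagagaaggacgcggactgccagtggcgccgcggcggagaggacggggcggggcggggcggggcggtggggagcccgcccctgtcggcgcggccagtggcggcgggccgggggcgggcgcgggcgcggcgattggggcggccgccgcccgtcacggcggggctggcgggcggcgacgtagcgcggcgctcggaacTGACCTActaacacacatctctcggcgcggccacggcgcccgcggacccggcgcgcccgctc
Arntl: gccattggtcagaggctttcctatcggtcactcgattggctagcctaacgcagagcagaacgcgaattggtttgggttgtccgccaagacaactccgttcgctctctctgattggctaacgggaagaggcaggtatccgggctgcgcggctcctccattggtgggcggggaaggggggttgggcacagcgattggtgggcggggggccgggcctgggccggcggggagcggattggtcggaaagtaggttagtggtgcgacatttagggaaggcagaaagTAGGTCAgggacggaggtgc
Tef had 1 E-box in the window shown, at position -138 from its start, and 1 at position -127 from its other RefSeq start (81802673). Nfil3 had TGACCTA, the ROR core read on the other strand, at position -12. Arntl had TAGGTCA at position 30 from the later start. None of the 10 genes had a D-box in these windows. Of all 21263 windows, 7.84% held the E-box, 5.78% the ROR core and 2.24% the D-box. A match is a description of the letters and not a bound site.

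The number of the 10 genes with a promoter interval followed the length of the list. A promoter interval is one that overlaps 1 kb on either side of the start site of the transcript the authors assigned. The conventional lists held 3113 and 15348 nuclear intervals (replicates 1 and 2), and 2 and 6 of the 10 genes had a promoter interval in them. The E. coli-monoassociated lists held 1986 and 868 intervals, with 1 of the 10 genes in each. The germ-free lists held 4428 and 17092 intervals, with 3 and 7 of the 10. Among all 21900 protein-coding genes the share with a promoter interval was 9.08% and 32.8% in the conventional, 4.21% and 1.87% in the E. coli-monoassociated and 11.0% and 29.6% in the germ-free libraries. In each library the share of the 10 genes was above that background, although it rests on 1 gene in each E. coli-monoassociated library. The 10 genes were chosen with earlier results of these data known, so this excess was not tested. The background genes were also not matched for base composition (median CG ratio 0.567, against 0.885 for the 10). In all, 8 of 10 had a promoter interval somewhere, against 37.0% of all genes.

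**Figure D1:**
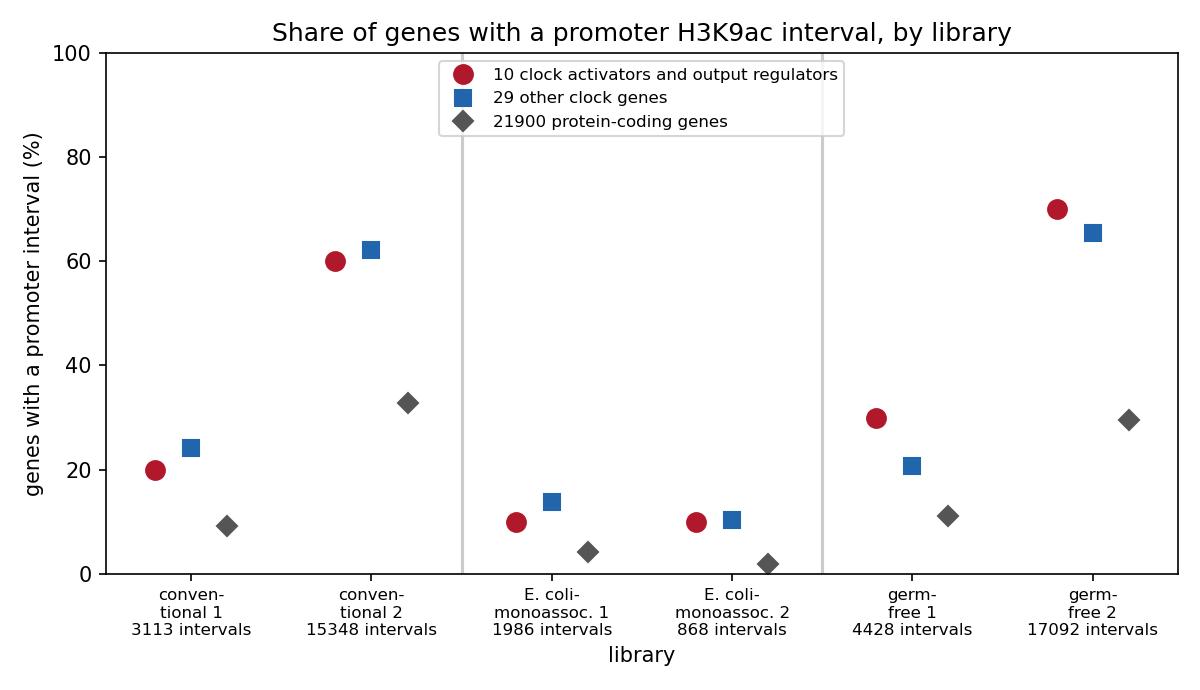
Share of genes (percent, vertical axis) with a promoter H3K9ac interval in each of the 6 libraries, for the 10 clock genes (circles), 29 other clock genes (squares) and all 21900 protein-coding genes (diamonds), with the length of each list under its name. All 3 sets were highest in conventional replicate 2 and germ-free replicate 2, the libraries with the longest lists.

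The gene sets of the 4 shorter lists were nested in each other. Nr1d1 alone was called in both E. coli-monoassociated libraries, Nr1d1 and Clock in conventional replicate 1, and Nr1d1, Clock and Npas2 in germ-free replicate 1. Conventional replicate 2 added Nr1d2, Arntl and Dbp to these, and germ-free replicate 2 added Nr1d2, Dbp, Tef and Nfil3. Thus Arntl was the 1 gene with a promoter interval in conventional replicate 2 and not in germ-free replicate 2, and Tef and Nfil3 were the 2 with the opposite pattern. Each of these patterns rests on single libraries. A promoter interval in conventional replicate 2 and no other library was found at 6.09% of all protein-coding genes, and one in germ-free replicate 2 and no other library at 3.48%.

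**Figure D2:**
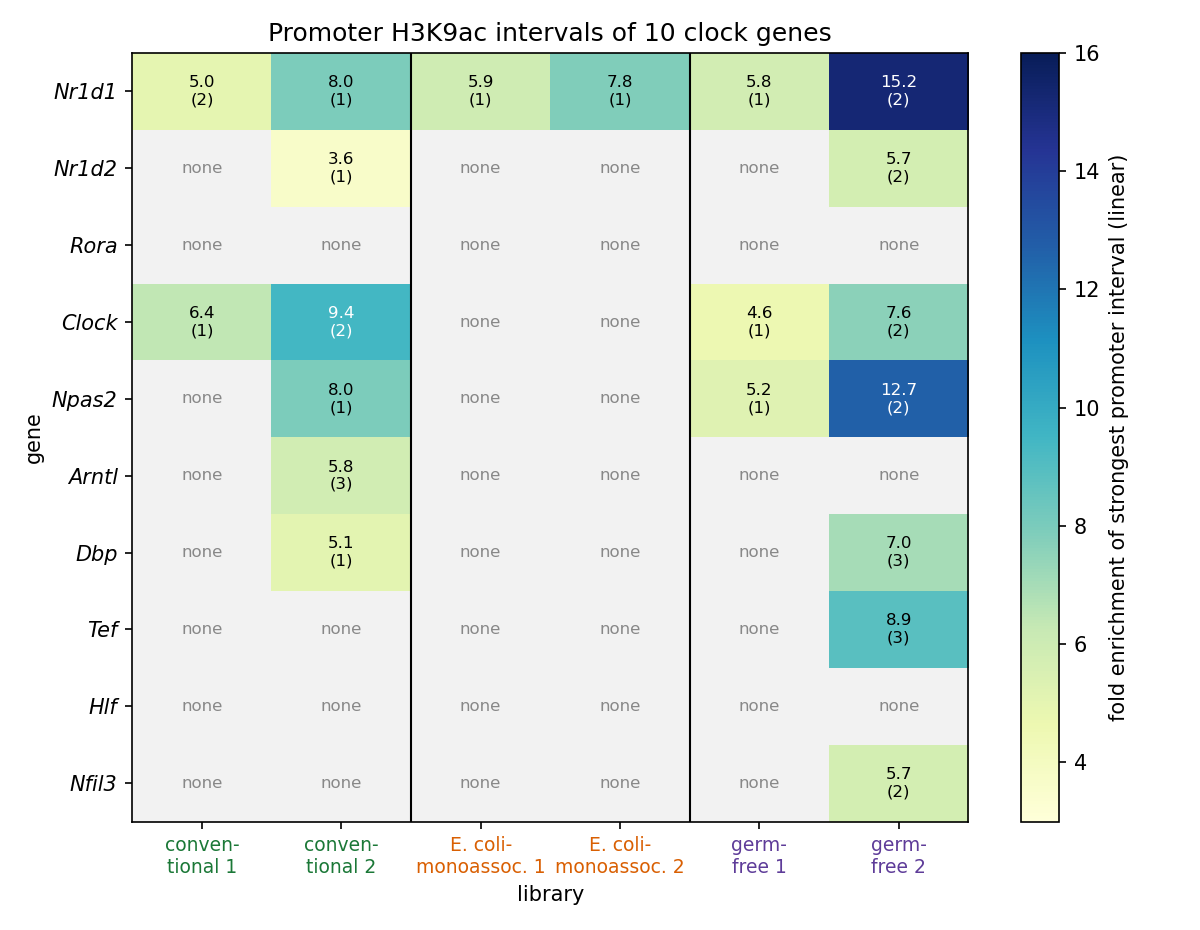
Fold enrichment of the strongest promoter interval (colour and upper number, linear scale, each relative to its own list) for 10 genes (rows) in 6 libraries (columns), with the number of promoter intervals in brackets and grey cells where none was called. Nr1d1 has a value in all 6 columns, Clock in 4, Npas2 in 3, Nr1d2 and Dbp in 2, Arntl, Tef and Nfil3 in 1, and Rora and Hlf in none.

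Fewer cells with the mark and a weaker mark per cell cannot be told apart in these lists, and an interval too weak for the list is absent from it. The lowest summit pileup listed (coverage by extended reads) was 5 and 4 in the conventional, 6 and 5 in the E. coli-monoassociated and 6 and 5 in the germ-free libraries. Fold is the pileup plus 1 over the background plus 1, so the listed folds give the genome background. It was 0.413 and 0.381, 0.690 and 0.403, and 0.733 and 0.579 extended reads per base in the same order. A missing interval is therefore not a measured absence of the mark. List length did not follow the background: conventional replicate 2 had the lowest (0.381) with 15348 intervals, and germ-free replicate 1 the highest (0.733) with 4428. What the number of reads adds to the length of a list was not tested. Fold and pileup are the authors' values for single peaks, and they are given here to describe and rank intervals within a list.

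Epithelial marker genes were called in every library. Of 9 epithelial markers such as Epcam, Vil1 and Cdx2, a promoter interval was found for 9 and 9 in the conventional, 8 and 6 in the E. coli-monoassociated and 8 and 9 in the germ-free libraries. None of 6 myeloid and none of 14 stromal, endothelial, muscle and nerve markers had one in any library.

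Nr1d1, which encodes the repressor REV-ERB alpha, was the 1 gene of the 10 with a promoter interval in all 6 libraries, a pattern found at 0.995% of protein-coding genes. In the conventional lists its strongest promoter interval was enriched 4.95-fold (replicate 1) and 7.97-fold (replicate 2). The E. coli-monoassociated lists gave 5.92-fold and 7.84-fold. The germ-free lists gave 5.77-fold and 15.2-fold. Its summit pileup was 6 and 10 in the conventional, 9 and 10 in the E. coli-monoassociated, and 9 and 23 in the germ-free libraries, the last inferred from the fold. The groups overlap in both measures.

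Within its own list the Nr1d1 promoter ranked high in some libraries and low in others. It was at or above 35.1% and 88.4% of the intervals in the conventional, 68.9% and 81.7% in the E. coli-monoassociated, and 67.4% and 99.3% in the germ-free lists. In conventional replicate 1 it was split into 2 short intervals of 146 and 220 bp, each 1 read above the lowest pileup of the list. In germ-free replicate 2 the strongest interval was 965 bp long and ranked 122nd of 17092, and a weaker promoter interval lay upstream at -869 to -449 with 4.43-fold enrichment. Among the 218 genes with a promoter interval in all 6 libraries, Nr1d1 stood in place 205 and 206 in the conventional, 97 and 20 in the E. coli-monoassociated, and 164 and 29 in the germ-free lists. These lists differ in length and background, so the places describe each list and not a change between them. The call in all 6 ended (0 genes) with a window of 0.5 kb, with -log10 q or fold of 5 or more, and with every list limited to its top 868 intervals.

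The acetylated stretch of Nr1d1 lay inside the gene, downstream of its start. The authors' start site is position 98775242 on the minus strand of chromosome 11 (RefSeq puts the start 135 bp further upstream). Bases shared by all 6 libraries ran from 98774458 to 98774589 on chromosome 11, a stretch of 132 bp at positions 653 to 784 from the authors' start. No interval of any library touched the RefSeq promoter window printed above. Over all genes, the window from 250 bases before to 50 after the start was touched by a promoter interval at 15.4% and 37.9% of marked starts in the conventional, 17.5% and 15.0% in the E. coli-monoassociated, and 15.4% and 32.2% in the germ-free libraries.

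Besides the promoter, Nr1d1 had 9 further intervals, none of them in an E. coli-monoassociated library or in conventional replicate 1. In conventional replicate 2 they were an intron interval at positions 1660 to 1909, with the list's lowest pileup of 4, and 2 upstream intervals at -8780 to -8574 and -9273 to -9127. Germ-free replicate 1 had 1 upstream interval, at -1629 to -1484. Germ-free replicate 2 had an intron interval at 1570 to 2113 (10.8-fold, pileup 16), exon intervals at 3164 to 3383 and 4738 to 4926, and upstream intervals at -1252 to -1102 and -7987 to -7631. The intron interval was the 1 site outside the promoter that both of the long lists shared. Upstream intervals between -7987 and -449 in the germ-free libraries lay over the long noncoding RNA gene Gm31862, and the authors named Msl1 beside Nr1d1 at every interval they classed as upstream, so the gene these calls belong to is uncertain.

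By the rank of the strongest promoter interval across the 6 lists, the genes most like Nr1d1 among those called in all 6 were Plagl2 and Pofut1 (which share promoter intervals), Rbm5, and Hadha and Hadhb (which also share them). Their rank percentiles differed from those of Nr1d1 by a mean of 5.98 points at Plagl2 and Pofut1, 6.46 at Rbm5 and 9.60 at Hadha and Hadhb, against a median of 20.7 over the genes called in all 6. The genes named were picked as the nearest, so a difference below that median follows from the choice. In the list of E. coli-monoassociated replicate 1 they, Nr1d1 and the median of the genes called in all 6 had the same percentile, 68.9. The rank percentiles share the libraries and their depths.

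Nr1d2, which encodes the related repressor REV-ERB beta, was called in the 2 longest lists alone. In conventional replicate 2 it had 1 promoter interval of 147 bp with 3.62-fold enrichment and a pileup of 4, the lowest fold and pileup in that list. In germ-free replicate 2 it had 2 promoter intervals, with 5.70-fold and 5.07-fold enrichment and inferred pileups of 8 and 7. The intervals of both libraries overlapped over 115 bp at positions 258 to 372 from the start (18239106 on chromosome 14, minus strand). A promoter interval in these 2 libraries and no other was found at 12.1% of all protein-coding genes, and Dbp was the other gene of the 10 with that pattern.

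Rora encodes the receptor that opposes the REV-ERBs at ROR elements. It spans 734843 bp on chromosome 9 in RefSeq, and no interval of any list was assigned to it or overlapped 1 kb on either side of its RefSeq starts.

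Clock, the bHLH-PAS partner of BMAL1, had a promoter interval in both conventional and both germ-free libraries and in neither E. coli-monoassociated library. In the conventional lists the strongest one was enriched 6.37-fold (pileup 8) in replicate 1 and 9.41-fold (pileup 12) in replicate 2. In the germ-free lists it was enriched 4.62-fold (pileup 7) in replicate 1 and 7.60-fold (pileup 11) in replicate 2. It was at or above 76.4% and 93.7% of the intervals in the conventional and 29.4% and 88.5% in the germ-free lists. The conventional and germ-free values overlap. All 4 libraries shared 209 bp, at 76304064 to 76304272 on chromosome 5 and positions 276 to 484 from the start (76304548, minus strand). In the long lists the domain was broad: 1292 bp in conventional replicate 2 and 1668 bp in germ-free replicate 2, longer than or equal to 96.9% and 98.1% of the promoter intervals of those lists. Each of these libraries also had a separate interval further upstream, at -1044 to -574 in conventional replicate 2 and at -1258 to -796 in germ-free replicate 2, over the noncoding RNA gene Gm7467 at the same locus.

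**Figure D3:**
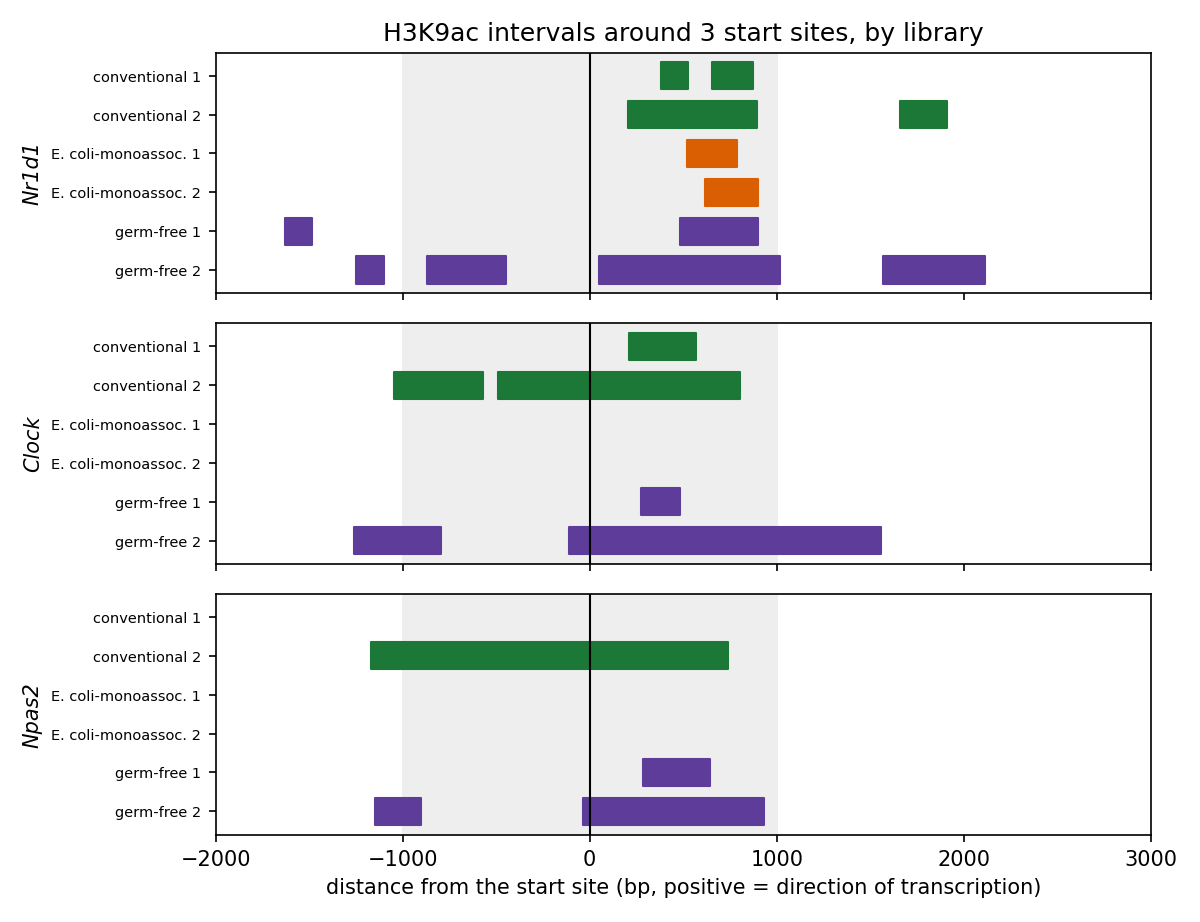
Intervals of Nr1d1, Clock and Npas2 in each library, drawn by distance in bp from the authors' start site (vertical line, positive in the direction of transcription), with the window of 1 kb on either side shaded. The bars of Nr1d1 meet at positions 653 to 784 in all 6 libraries, and the rows of the E. coli-monoassociated libraries are empty at Clock and Npas2.

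Npas2, the paralogue that can replace CLOCK, had a promoter interval in conventional replicate 2 and in both germ-free libraries. Its enrichment was 7.97-fold (pileup 10) in conventional replicate 2. It was 5.19-fold (pileup 8) in germ-free replicate 1 and 12.7-fold (inferred pileup 19) in germ-free replicate 2, which had a further promoter interval at -1147 to -903 with 8.24-fold enrichment. It was not called in conventional replicate 1 or in the E. coli-monoassociated libraries. The 360 bp interval of germ-free replicate 1, at positions 284 to 643 (39194556 to 39194915 on chromosome 1, plus strand, with the start at 39194272), lay wholly inside the intervals of the other 2 libraries. The domain of 1912 bp in conventional replicate 2 was longer than or equal to 99.1% of the promoter intervals of its list, and it spanned the promoter window printed above, from -1171 to 740.

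Npas2 also carried 6 of the 11 intron intervals of the set. Germ-free replicate 2 had 5 of them, from positions 11965 to 66694, and the strongest, at 46112 to 46622, had 6.97-fold enrichment. Conventional replicate 2 had 1, at 11039 to 11264, which did not overlap any of the 5. Further upstream, germ-free replicate 1 had an intergenic interval at -48347 to -48202 and germ-free replicate 2 an upstream interval at -6308 to -6089, each in that library alone.

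Arntl, which encodes BMAL1, had promoter intervals in conventional replicate 2 alone, around the start at 113207465 on chromosome 7. There were 3 of them, at -728 to -466 with 5.79-fold enrichment and a pileup of 7, and at 396 to 542 and 673 to 821 with 4.35-fold enrichment and a pileup of 5 each. They flanked the start and left the promoter window printed above free. The same library had 2 intervals further upstream, at -28406 to -28260 and -20422 to -20025, both inside the longer Arntl gene that RefSeq starts at 113178471. Germ-free replicate 2 had a single intron interval, at 53617 to 53940, with 5.07-fold enrichment. No Arntl interval was shared by 2 libraries.

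Dbp, the clock-driven activator of D-box genes, was called in the long lists alone, around the start at 45705247 on chromosome 7. Conventional replicate 2 had 1 interval of 283 bp at positions 967 to 1249, with 5.07-fold enrichment and a pileup of 6. Germ-free replicate 2 had 3 promoter intervals, the strongest with 6.97-fold enrichment at -933 to -592, over the end of the neighbouring gene Car11. It also had an intron interval of 1060 bp at 1877 to 2936, which was stronger than the promoter ones, with 8.87-fold enrichment and an inferred pileup of 13. The interval of conventional replicate 2 lay inside one of germ-free replicate 2 at 914 to 1579, and most of it fell beyond 1 kb from the start.

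Tef, a PAR bZIP activator, had 4 intervals, all in germ-free replicate 2, around the start at 81811414 on chromosome 15. The strongest promoter interval, at -1093 to -559, had 8.87-fold enrichment and an inferred pileup of 13, at or above 93.5% of that list. A weaker one, at -256 to -77 with 5.07-fold enrichment, covered the E-box of the printed window. The others were at 771 to 988 and 1183 to 1387. The third PAR bZIP gene, Hlf on chromosome 11, had no interval assigned to it or within 1 kb of its RefSeq start.

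Nfil3, the repressor that competes with the PAR bZIP factors at D-boxes, had 2 promoter intervals of 147 bp, the shortest length in that list, in germ-free replicate 2. They lay upstream of the start (52981039, minus strand) at -593 to -447 and -1026 to -880 with 4.43-fold and 5.70-fold enrichment, inside the longer gene that RefSeq extends to 52982878 on chromosome 13. No interval lay over its printed window.

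**Figure D4:**
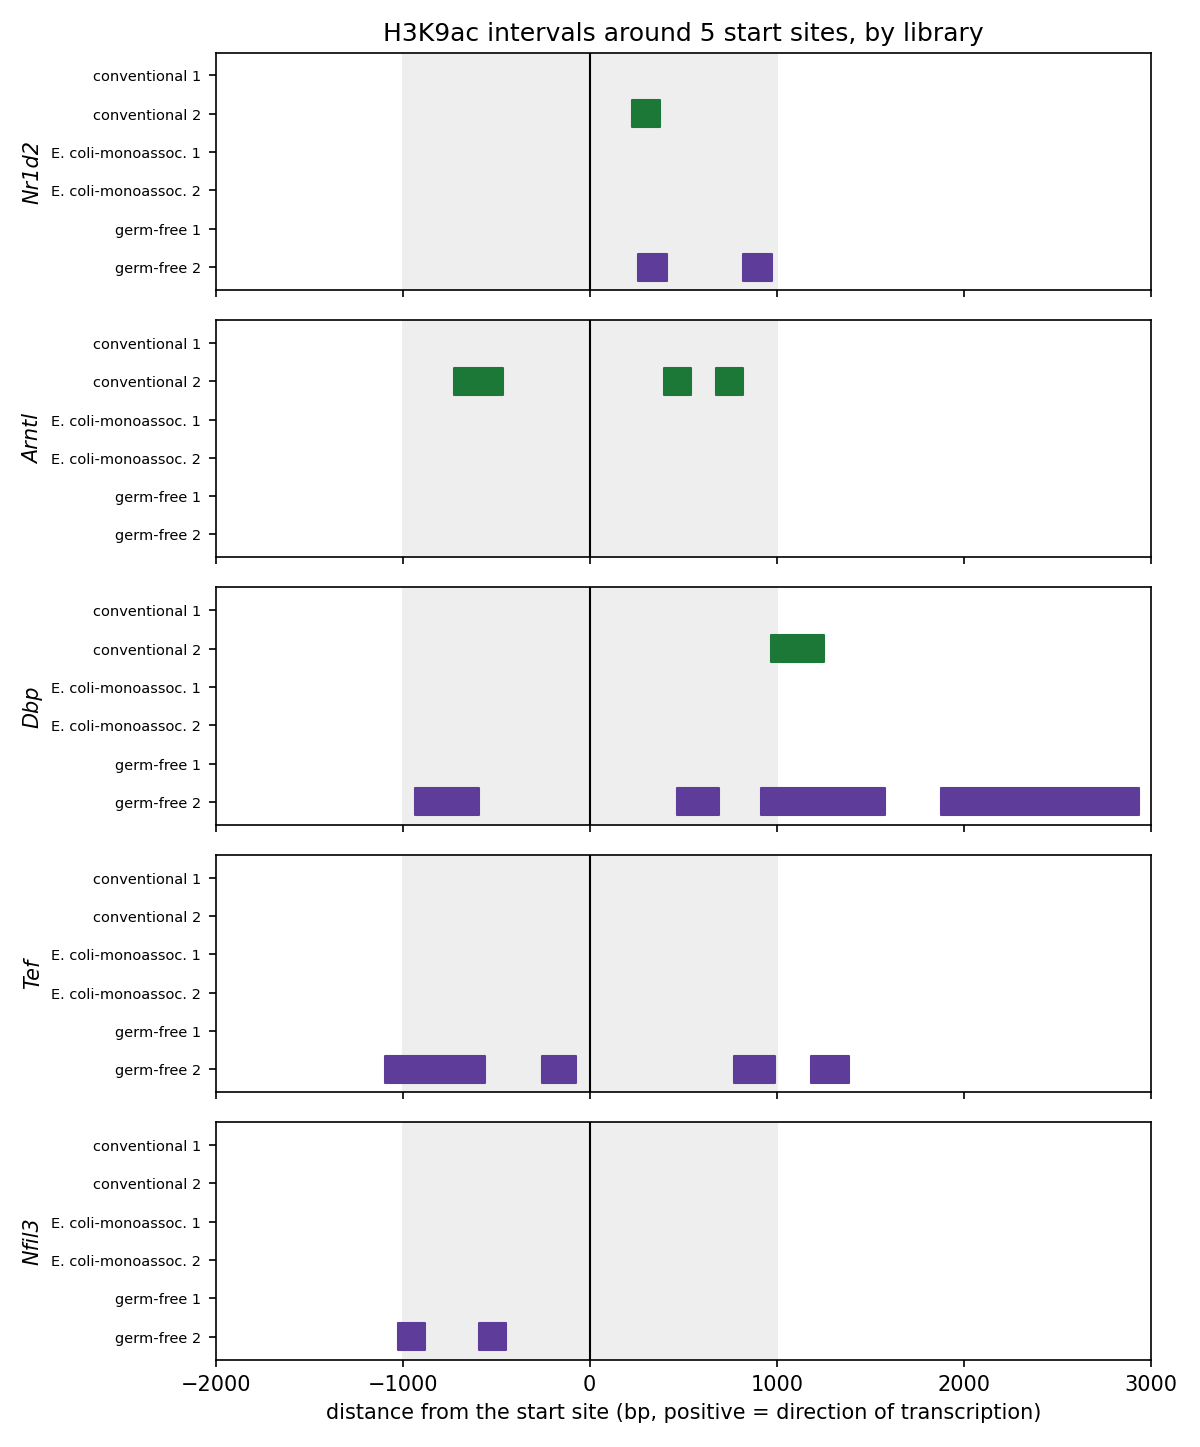
Intervals of Nr1d2, Arntl, Dbp, Tef and Nfil3 in each library by distance in bp from the authors' start site (vertical line), with the window of 1 kb on either side shaded. Bars appear in conventional replicate 2 and germ-free replicate 2 alone, and the Arntl row of germ-free replicate 2 is empty because its 1 interval, an intron one, lies beyond the range drawn.

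When all intervals of the 10 genes were merged, 39 regions resulted. Of these 32 were called in 1 library, 4 in 2, 1 in 3 (Npas2), 1 in 4 (Clock) and 1 in all 6 (Nr1d1). Conventional replicate 2 or germ-free replicate 2 had called 37 of the 39, and 7 were called in both. By the authors' classes 33 of the 55 intervals (60.0%) were promoter intervals, against 60.6% of all nuclear intervals. Another 11 lay in introns (20.0% against 18.9%), 7 upstream (12.7% against 7.71%), 2 in exons and 2 between genes. The midpoint of a promoter interval was downstream of the start at 22 of 33 intervals of the 10 genes. By library it was so at 3 of 3 and 6 of 9 in the conventional, 1 of 1 and 1 of 1 in the E. coli-monoassociated, and 3 of 3 and 8 of 16 in the germ-free lists. Of all promoter intervals the share was 81.3% and 73.6% in the conventional, 80.9% and 78.2% in the E. coli-monoassociated, and 77.2% and 69.6% in the germ-free lists.

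The first pair of groups was E. coli-monoassociated against germ-free. No gene of the 10 had a promoter interval in both E. coli-monoassociated libraries and neither germ-free one, and no protein-coding gene did (0%). In the other direction Clock and Npas2 had one in both germ-free libraries and neither E. coli-monoassociated one, a pattern held by 6.67% of all protein-coding genes. Of genes with a promoter interval in both germ-free libraries, 2 of the 3 clock genes lacked one in both E. coli-monoassociated libraries, and 65.6% of all 2226 such genes did. The exception was Nr1d1. The clock genes' share is thus close to the background. E. coli-monoassociated replicate 1 and germ-free replicate 1 had like backgrounds (0.690 and 0.733) and the same lowest pileup of 6. Nr1d1 had a pileup of 9 in each, and Npas2 and Clock, with none listed in the E. coli-monoassociated library, had 8 and 7 in the germ-free one. These 2 lists still differed in length, with 1986 intervals in the E. coli-monoassociated and 4428 in the germ-free one. A promoter interval was found at 4.21% and 11.0% of all protein-coding genes, respectively. Whether the missing calls of Npas2 and Clock go beyond this list-wide difference was not tested. Without germ-free replicate 1 the count became 6 genes, and without any other of the 4 libraries it stayed at 2. With -log10 q of 5 or more, or with every list limited to its top 868 intervals, it was 0.

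The conventional state was then set against the germ-free state. No gene of the 10 had a promoter interval in both libraries of one group and neither of the other, in either direction. Among all protein-coding genes 0.292% had one in both conventional and neither germ-free library, and 0.251% the opposite. Nr1d1 and Clock had a promoter interval in all 4 of these libraries. The 64 genes with the first pattern were 3.25% of those with a promoter interval in both conventional libraries, and the 55 with the second were 2.47% of those with one in both germ-free libraries. When conventional replicate 1 was left out, Arntl alone met the first pattern. Npas2 alone met the second without conventional replicate 2, and Tef and Nfil3 (2 genes) met it without germ-free replicate 1.

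Last, the conventional state was set against monoassociation, a complete microbiota against 1 species. Clock had a promoter interval in both conventional and neither E. coli-monoassociated library, as did 5.56% of protein-coding genes, and no gene had the opposite pattern (0%). Of the 2 clock genes called in both conventional libraries 1 lacked an interval in both E. coli-monoassociated libraries, against 61.9% of all 1968 such genes. Among the 1202 genes called in all 4 conventional and germ-free libraries, 48.7% lacked one in both E. coli-monoassociated libraries, Clock among them and Nr1d1 not. Conventional replicate 1 and E. coli-monoassociated replicate 2 had like backgrounds (0.413 and 0.403) and the same lowest pileup of 5. Nr1d1 had a pileup of 6 in the conventional and 10 in the E. coli-monoassociated library, and Clock had 8 in the conventional library with none listed in the other. These 2 lists also differed in length, with 3113 intervals in the conventional and 868 in the E. coli-monoassociated one. All protein-coding genes had a promoter interval at shares of 9.08% and 1.87%, respectively. Whether the missing call of Clock goes beyond this list-wide difference was not tested. Without conventional replicate 1 the count of genes in both conventional and neither E. coli-monoassociated libraries became 5. With every list limited to its top 868 intervals it was 0, a limit that keeps all of the list of E. coli-monoassociated replicate 2 and a small part of the longest ones.

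**Figure D5:**
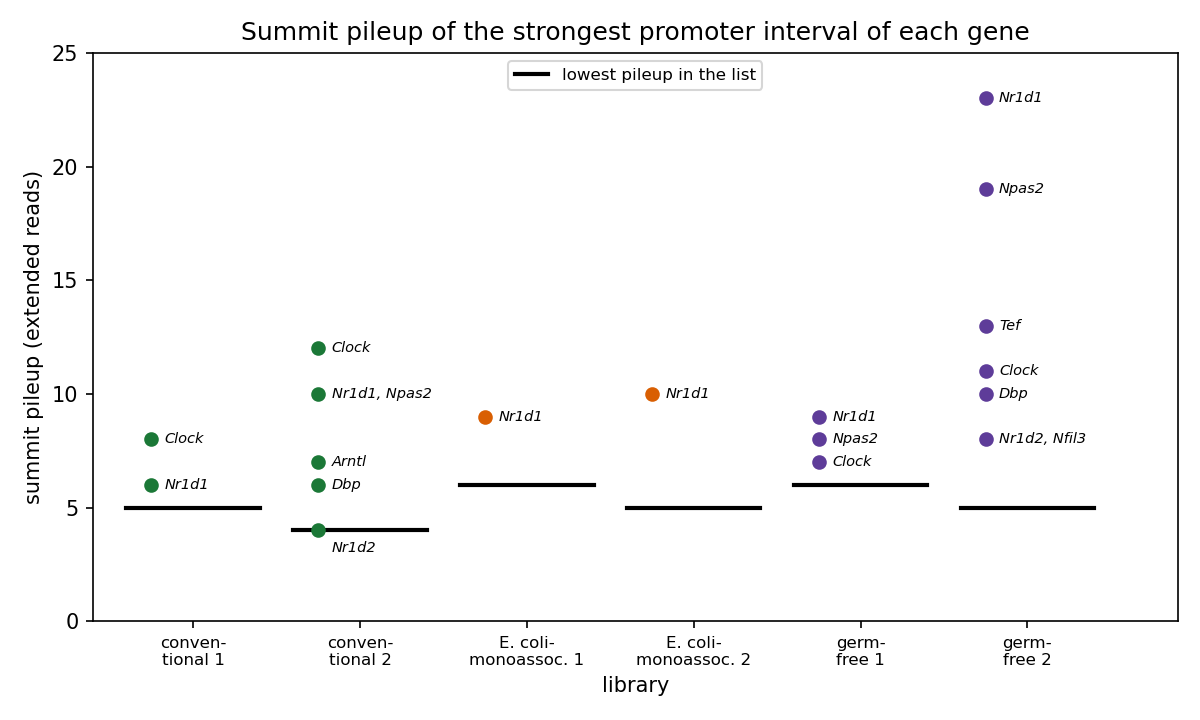
Summit pileup in extended reads (vertical axis, not scaled between libraries) of the strongest promoter interval of each gene called in each library, with a black bar at the lowest pileup in that library's list. Pileups of germ-free replicate 2 are inferred from the fold, and Nr1d2 in conventional replicate 2 sits on the bar at 4.

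With 2 libraries in a group, an exact two-sided permutation test of a pair of groups cannot give a p below 0.333, so no difference between groups is tested here. The calls are described by library instead.

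Of a list of 29 other clock genes (repressors, kinases, ubiquitin ligases and cofactors), 7 and 18 had a promoter interval in the conventional, 4 and 3 in the E. coli-monoassociated, and 6 and 19 in the germ-free libraries, and 23 in any. These were 24.1% and 62.1% of the list in the conventional, 13.8% and 10.3% in the E. coli-monoassociated and 20.7% and 65.5% in the germ-free libraries. The shares of all protein-coding genes were 9.08% and 32.8%, 4.21% and 1.87%, and 11.0% and 29.6% in the same order, and 79.3% of the list had one in any library, against 37.0% of all genes. Nrip1, a nuclear receptor corepressor, had one in all 6, like Nr1d1. Fbxw11, a ubiquitin ligase subunit that targets PER proteins, and Prkaa2, a catalytic subunit of AMP-activated kinase, shared the pattern of Clock, with an interval in all 4 conventional and germ-free libraries and in neither E. coli-monoassociated one. Usp2, a deubiquitinase, had one in both conventional libraries and neither E. coli-monoassociated library, and in germ-free replicate 2. Of the 6 genes of this list with an interval in both germ-free libraries 2 lacked one in both E. coli-monoassociated libraries, and of the 7 with one in both conventional libraries 3 did. Over all protein-coding genes these shares were 65.6% of 2226 and 61.9% of 1968. This list was also chosen with earlier results of these data known, and its difference from all genes was not tested.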

How the data were processed

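H3K9ac was profiled by chromatin immunoprecipitation and sequencing in 6 libraries. Per the labels, reads were single-end of 50 bp, with a stated depth of 20000000 reads. The build was mm10 and the tools MACS2 (2.1.1.20160309) and Bowtie (1.2.0), per the submitters' processing notes. Each library has its own peak list; options of the caller and any input are not given in the sources used. The deposited lists give per interval the pileup signal at the summit, the fold enrichment as a ratio to background, and -log10 p and -log10 q, with the authors' gene and region class. In germ-free replicate 2, 13 cells stood under a header of 14 names without a pileup: the values showed which column was which, and pileups and background were inferred from the steps of the fold. The list of germ-free replicate 2 also gave no summit position and repeated no interval (17094 lines for 17094 intervals, mitochondrial ones included). Every other list repeated some intervals for further summits, such as conventional replicate 2 with 18032 lines for 15352 intervals. Whether germ-free replicate 2 was called with other options is not given in the sources used. An interval listed more than once was counted once, and mitochondrial intervals were left out.

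Gene symbols were matched to RefSeq (GRCm38.p6): of 10621 symbols 54 did not match. Promoters and motifs come from RefSeq's promoter table, where all 10 genes matched. Distances count from the authors' start site, or RefSeq's for Rora and Hlf. All 10 genes are named. Of the other clock genes, those called in all 6 libraries or with the both-and-neither pattern are named, and for Nr1d1 the 5 genes nearest by rank percentile. Some results for genes of the other lists are not reported here. The members and lists were chosen with earlier results of these data known. The step that assigns intervals to promoters was tested on simulated data. Python 3.11.15, pandas 2.3.3, NumPy 2.4.6 and matplotlib 3.10.9 were used. Alternatives were the window, stricter thresholds, equal list lengths, the overlap, the gene assignment and leaving out libraries.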

Additional observations from a re-analysis of the deposited data

How the results depend on the processing

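Of 145 recomputed counts, 105 stayed within 1.5 times the reported one. Counts of the 10 genes are small, so 1 gene often moves them. The values below give conventional, E. coli-monoassociated and germ-free libraries in that order. A window of 0.5 kb took Nr1d1 from both E. coli-monoassociated libraries, whose Nr1d1 intervals begin further away (0 and 0 genes left), so 0 genes were called in all 6 and 2 in both conventional and neither E. coli-monoassociated library. With -log10 q of 5 or more the counts per library were 1 and 3, 0 and 1, and 0 and 5, no gene was called in all 6 (0), and 0 had the pattern of both germ-free but neither E. coli-monoassociated library. With a fold of 5 or more, conventional replicate 1 kept 1 gene, 0 were called in all 6, and 1 (Npas2) had the germ-free and not E. coli pattern. With the top 868 intervals of each list, equal in number to the shortest list and with ties broken by length, the counts were 0 and 0, 1 and 1, and 0 and 2. Then 0 genes were called in all 6, 0 in both conventional and neither E. coli-monoassociated or both germ-free but neither E. coli-monoassociated library, and 1 (Nr1d1) in both E. coli-monoassociated and neither conventional library. This limit keeps all of the list of E. coli-monoassociated replicate 2 and a small part of the longest ones, so these counts show no change between groups. Clock in conventional replicate 1 was lost there in a tie. A window of 2.5 kb, RefSeq starts in place of the authors' assignment, and an overlap of 100 bp left each count within 1.5 times.

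Leaving out single libraries, both conventional and neither E. coli-monoassociated ranged from 1 to 5, both conventional and neither germ-free from 0 to 1, both germ-free and neither conventional from 0 to 2, and both germ-free but neither E. coli-monoassociated from 2 to 6. Both patterns led by E. coli-monoassociated libraries stayed at 0, and the count in all 6 at 1.

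The merged regions numbered 39. Merging only intervals that overlap by at least 0.5 of both left 0 regions called in all 6. With -log10 q of 5 or more there were 12 regions, with 1 and 3, 0 and 1, and 0 and 12 per library and 0 in all 6, and with the top 868 intervals 3, with 0 and 0, 1 and 1, and 0 and 3 per library and 0 in all 6. No paired analysis was possible because the results are counts of calls and come from no test.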
